A study of Mus musculus with 6 samples.

Results

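The cathepsin genes of mouse liver were examined in controls and in animals lacking Sox9 in the liver epithelium. The 10 genes Ctsa, Ctsb, Ctsc, Ctsd, Ctse, Ctsf, Ctsh, Ctsl, Ctss and Ctsz were taken by gene symbol from the 24411 rows of the deposited expression table, and each had exactly 1 row. The rule names them and uses no measured value, but the genes were chosen with earlier results of these data known. Liver mRNA was sequenced from 3 control samples, whose genotype label is WT, and 3 samples labelled Alb-Cre+/+;Sox9 flox/flox (Sox9 cKO). In the Sox9 cKO animals the albumin promoter drives Cre recombinase, so that the floxed Sox9 alleles are removed in liver epithelial cells, and the labels name no other cell type. Whether the controls carried floxed alleles or Cre, the ages and sexes of the animals, and whether each sample came from a separate animal are not stated, so the p-values reflect variation among these libraries, which may be technical. The study asked what SOX9, a transcription factor that marks bile ducts, does during the maturation of the bile duct network after birth.

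Cathepsins are proteases of the lysosome, the acidic compartment in which cells degrade proteins taken up from outside or delivered by autophagy. Most are cysteine proteases, which are made as inactive precursors, carried to the lysosome by mannose 6-phosphate receptors and activated there by cleavage, and whose leakage is held in check by the cystatin inhibitors. Cathepsins B, D, L, H and Z are found in nearly every cell, hepatocytes included, whereas cathepsin S is made mainly by macrophages, dendritic cells and B cells, where it removes the invariant chain from MHC class II molecules. In liver the resident macrophages are the Kupffer cells.

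Expression was measured as TPM, transcripts scaled to a fixed total, which divides the reads of a gene by its length and scales every library to 1000000, so that levels of different genes can be set side by side. Sequencing depth is unknown on this scale. Genes above 0 numbered 15266 to 15506 per control library and 14649 to 14991 per Sox9 cKO library. Sox9 itself stood at 1.69, 1.43 and 1.43 TPM in controls against 0.19, 0.40 and 0.68 TPM in Sox9 cKO, with a log2 fold change of -1.16 (limma adjusted p = 0.0323, SE 0.25). The Sox9 call was lost in 10 of 17 alternatives, among them the removal of each control or of Sox9 cKO replicate 1 or 2, with fold changes of -1.74 to -0.66 and adjusted p of 0.0055 to 0.359. The groups also differed in sex markers. Xist reached 114 and 123 TPM in the first 2 control replicates and at most 0.02 TPM in the other 4 libraries, while the Y-linked Eif2s3y was at 47.6 to 51.6 TPM in those 4 and at most 0.07 TPM in control replicates 1 and 2. Group and sex are therefore partly confounded, and control replicate 3 is the single control that shares its sex markers with the Sox9 cKO libraries.

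Ctsl, Ctsd, Ctsb, Ctsz and Ctsh were the abundant cathepsins of control liver, Ctss, Ctsa, Ctsc and Ctsf were of intermediate level, and Ctse was nearly absent. In controls the mean level ran from 739 ± 137 TPM for Ctsl through 378 ± 29.6 for Ctsd, 349 ± 14.7 for Ctsb, 280.2 ± 20.8 for Ctsz and 263 ± 25.5 for Ctsh (SD, n = 3). Below these came Ctss at 92.6 ± 8.84 TPM, Ctsa at 88.8 ± 13.0, Ctsc at 58.8 ± 12.4 and Ctsf at 22.6 ± 1.88 (SD, n = 3). The ranges of the neighbours Ctsd and Ctsb, of Ctsz and Ctsh, and of Ctss and Ctsa overlapped in controls, so their order is not resolved. In Sox9 cKO the mean levels were 506 ± 44.9 TPM for Ctsl, 343 ± 41.0 for Ctsd, 231 ± 26.4 for Ctsb, 228 ± 44.4 for Ctsz and 212 ± 41.1 for Ctsh (SD, n = 3). Ctss moved from rank 6 to rank 8, at 35.0 ± 18.5 TPM, behind Ctsa at 64.3 ± 7.65 and Ctsc at 41.8 ± 13.1 and ahead of Ctsf at 17.0 ± 5.50 (SD, n = 3). There the ranges of Ctsb, Ctsz and Ctsh overlapped in turn, as did those of Ctsc, Ctss and Ctsf.

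**Figure D1:**
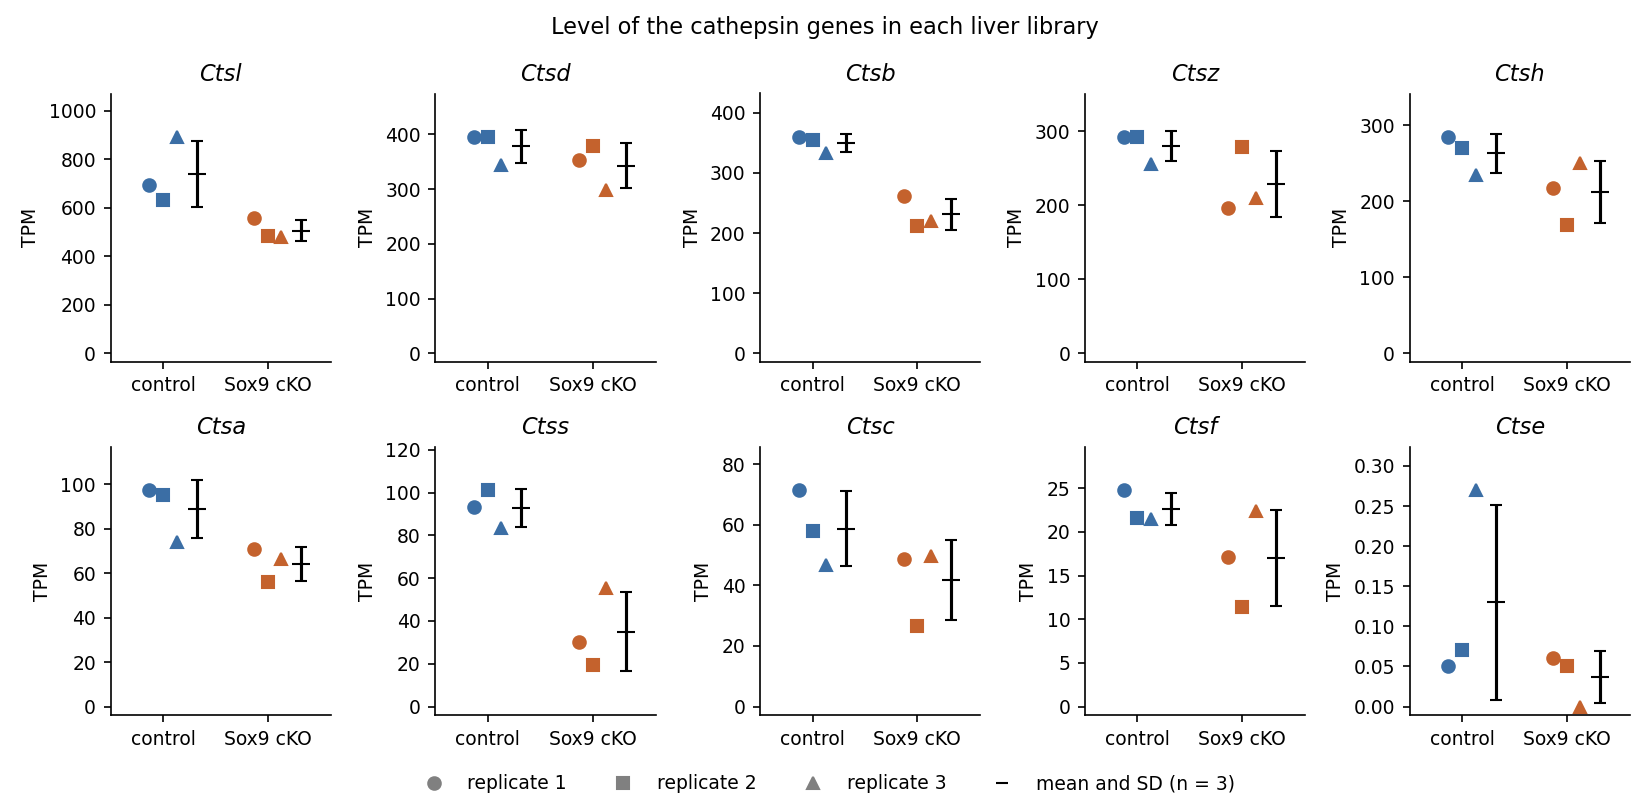
Level of each of the 10 cathepsin genes in TPM (y axis, linear from 0, a separate scale for each gene) in the 3 control and 3 Sox9 cKO liver libraries; marker shapes give the replicate number, and the bar beside each group gives its mean and SD (n = 3). The groups do not overlap for Ctsl, Ctsb, Ctsa and Ctss, with Ctss at 83.5 to 101 TPM in controls against 19.4 to 55.5 TPM in Sox9 cKO.

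Of the 10 genes, 9 passed the filter of a mean of at least 0.5 TPM and were tested; 2 of them, Ctss and Ctsb, were lower in Sox9 cKO and 0 were higher (limma on log2(TPM + 0.5), adjusted p under 0.05 over all 12539 tested genes). Lower calls made up 8.76% of all tested genes and higher calls 0.821%. At an unadjusted p under 0.05, 4 members were lower and 0 higher. The share of all tested genes at this unadjusted level was not computed. Such counts, here and for the alternatives and lists below, therefore have no background beside them. All 3 Sox9 cKO values lay below all 3 control values for 4 of the 9, against 33.7% of all tested genes, so that separated groups were common in the whole table and not particular to the cathepsins. The members' median log2 fold change was -0.46, beside -0.24 over all tested genes. After median centring, which brings the median of all genes to 0.04, and after quantile normalization, which brings it to 0.03, 0 of the 9 members were past the threshold by limma, with 2 and 4 lower at an unadjusted p under 0.05. Median centring moved the members to between -1.24 (Ctss) and 0.13 (Ctsd), with Ctsh at -0.05 and Ctsz at -0.03. By catalytic class, 2 of 7 cysteine proteases were called, 0 of the 1 tested aspartic protease and 0 of 1 serine protease.

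**Figure D2:**
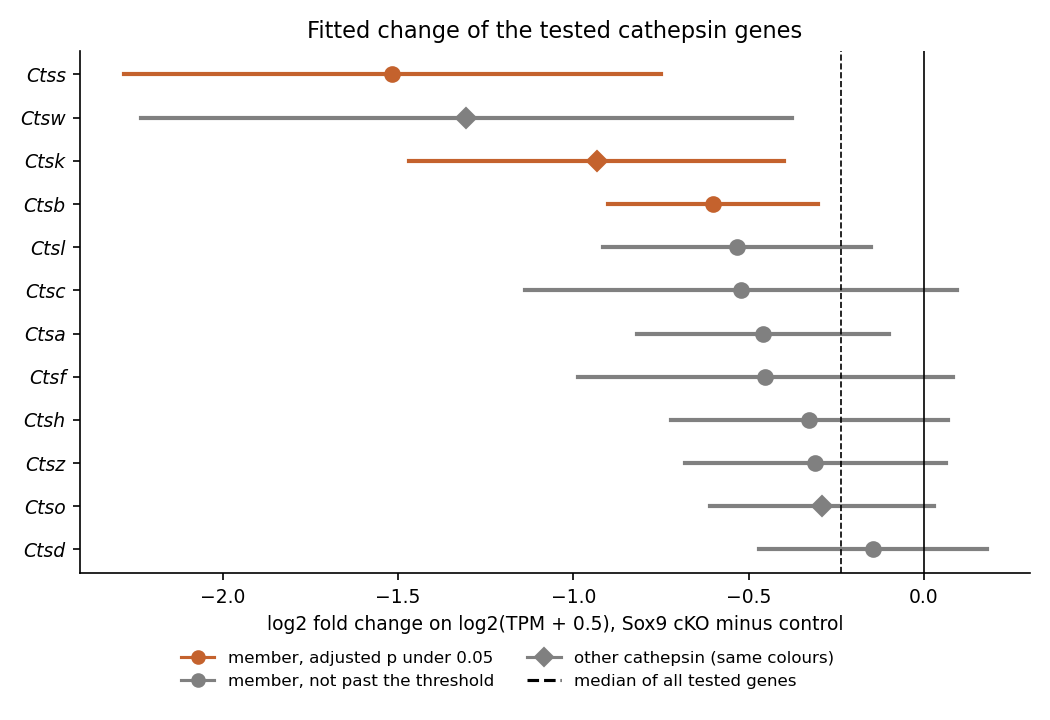
Fitted log2 fold change (x axis, log2(TPM + 0.5), Sox9 cKO minus control) of the 9 tested cathepsin genes and of 3 further tested cathepsins, with lines for the 95% confidence interval. Ctss lies farthest to the left at -1.52, and the intervals of Ctsc, Ctsf, Ctsh, Ctsz, Ctso and Ctsd include 0; the dashed line marks the median of all tested genes at -0.24.

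Ctss, cathepsin S (chromosome 3, 95526786 to 95556403, plus strand, mm10), had the largest fitted change among the members. Its level was 93.2, 101 and 83.5 TPM in controls against 30.1, 19.4 and 55.5 TPM in Sox9 cKO, so the groups did not overlap and the Sox9 cKO mean was 37.8% of the control mean. The spread within Sox9 cKO was wider than within controls, with replicate 2 lowest and replicate 3 highest. The log2 fold change was -1.52 (SE 0.33, 95% interval -2.28 to -0.75, limma adjusted p = 0.0333), at percentile 1.99 of all tested genes. The call ended without control replicate 1 (adjusted p = 0.115), control replicate 2 (0.119), control replicate 3 (0.0876) or Sox9 cKO replicate 1 (0.0809), in a range of 0.00277 to 0.416 over all alternatives, in which the fold change kept its sign. Against control replicate 3 alone, the control with the same sex markers, all 3 Sox9 cKO values were lower.

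Promoter sequence was read for the members from RefSeq windows of build GRCm38.p6, which is the assembly of mm10; 7 of the 10 members matched, with 8 windows. The 120 bases before the RefSeq start are shown for Ctss, the called member with a window, and for Ctsa and Ctsd, whose windows hold the extended E-box TCACGTGA, printed in capitals. This 8-base word contains CACGTG, the core bound by TFEB and its relatives, known regulators of lysosomal genes.
Ctss chr3:95526666-95526785 (plus strand): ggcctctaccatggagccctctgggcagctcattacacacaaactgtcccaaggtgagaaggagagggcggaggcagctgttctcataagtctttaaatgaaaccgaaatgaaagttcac
Ctsa chr2:164833653-164833772 (plus strand): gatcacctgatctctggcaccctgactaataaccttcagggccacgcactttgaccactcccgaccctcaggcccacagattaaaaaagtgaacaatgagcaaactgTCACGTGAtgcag
Ctsd chr7:142387828-142387947 (minus strand): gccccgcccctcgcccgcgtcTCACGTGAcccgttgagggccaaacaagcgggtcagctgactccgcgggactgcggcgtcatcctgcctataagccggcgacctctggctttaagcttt
For Ctss the RefSeq start is the GENCODE gene start printed above. For Ctsa and Ctsd the RefSeq starts differ from the GENCODE gene ends printed here, and the stretches shown lie inside the GENCODE span of the gene. Both strands of the 250 bases before each RefSeq start were searched. TCACGTGA lay 13 bases before the RefSeq start for Ctsa, in 1 of its 2 windows, and 99 bases before it for Ctsd. It occurred in 2 of 8 member windows and in 0.7854% of all 32851 windows. CACGTG occurred in 4 of 8 member windows (Ctsa, Ctsd, Ctsf and Ctsl) and in 6.021% of all windows. GAGGAAG, the purine-rich core bound by ETS factors such as PU.1, occurred for Ctsc and in 10.61% of all windows. The Ctss and Ctsz windows held none of the 3 words, which says only that these letters are not in these windows.

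Ctsb, cathepsin B, an endopeptidase that also trims dipeptides from the C-terminal end (chromosome 14, 63122462 to 63145923), was lower in Sox9 cKO. Its level was 360.1, 355 and 333 TPM in controls against 261, 212 and 219.9 TPM in Sox9 cKO. The 3 controls lay within a narrow band, and every Sox9 cKO library lay below it, at 66.1% of the control mean on average. On the log2 scale the fitted change was -0.60 (SE 0.13, 95% interval -0.90 to -0.30, limma adjusted p = 0.0321). The call ended without any 1 of the 3 controls (adjusted p = 0.125, 0.123 and 0.0792 for replicates 1, 2 and 3), without Sox9 cKO replicate 2 (0.0536) or replicate 3 (0.052), and with the replicate number as a block (0.0701), in a range of 0.0133 to 0.439 over all alternatives. Median centring moved its fold change to -0.33.

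Ctsl, cathepsin L, the most abundant member and a broad lysosomal endopeptidase (chromosome 13, 64359337 to 64370890), did not pass the threshold. Its level was 692, 632 and 893 TPM in controls against 558, 482 and 479 TPM in Sox9 cKO. The groups did not overlap, and control replicate 3 was well above the other controls. The log2 fold change was -0.53 (SE 0.17, 95% interval -0.92 to -0.15, limma adjusted p = 0.0794). With a term for the sex markers it was -0.82 and after median centring -0.26.

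The other cysteine members are exopeptidases, apart from Ctsf, and their groups overlapped. Ctsz, cathepsin Z, a carboxypeptidase (chromosome 2, 174427493 to 174439039), stood at 293, 292 and 256 TPM in controls against 196, 279 and 209.8 TPM in Sox9 cKO, where replicate 2 reached into the control range. Its log2 fold change was -0.31 (SE 0.16, 95% interval -0.68 to 0.06, limma adjusted p = 0.238). Ctsh, cathepsin H, an aminopeptidase (chromosome 9, 90054152 to 90076089), stood at 285, 269.7 and 235 TPM in controls against 217, 168 and 250.2 TPM in Sox9 cKO. Here it was Sox9 cKO replicate 3 that reached into the control range, and the log2 fold change was -0.33 (SE 0.17, 95% interval -0.72 to 0.07, limma adjusted p = 0.238).

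Ctsc, cathepsin C or dipeptidyl peptidase I, activates the granule proteases of neutrophils and cytotoxic lymphocytes (chromosome 7, 88278085 to 88310888). It stood at 71.5, 58.1 and 46.7 TPM in controls against 48.8, 26.6 and 49.8 TPM in Sox9 cKO, so that control replicate 3 lay below 2 of the Sox9 cKO libraries. On the log2 scale the fitted change was -0.52 (SE 0.27, 95% interval -1.14 to 0.09, limma adjusted p = 0.230). Ctsf, cathepsin F, an endopeptidase with a cystatin-like stretch in its precursor (chromosome 19, 4855130 to 4860918), stood at 24.8, 21.6 and 21.5 TPM in controls against 17.1, 11.4 and 22.4 TPM in Sox9 cKO. Sox9 cKO replicate 3 again lay within the control range, and the log2 fold change was -0.45 (SE 0.23, 95% interval -0.99 to 0.08, limma adjusted p = 0.230). Without Sox9 cKO replicate 2 the log2 fold change was -0.23 for Ctsc, -0.20 for Ctsf, -0.17 for Ctsh and -0.46 for Ctsz. With a term for the sex markers it was -0.22 for Ctsc, -0.38 for Ctsf, -0.17 for Ctsh and -0.18 for Ctsz. For Ctsz, Ctsh, Ctsc and Ctsf the interval includes 0 and reaches -0.68 or lower, so neither a change of that size nor its absence is shown.

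Ctsd, cathepsin D, the main aspartic protease of lysosomes (chromosome 7, 142375911 to 142388038), had the smallest fitted change of the members. It stood at 395, 395 and 344 TPM in controls against 352, 378 and 298 TPM in Sox9 cKO, and the groups overlapped. The log2 fold change was -0.15 (SE 0.14, 95% interval -0.47 to 0.18, limma adjusted p = 0.515), above the median of all genes, and median centring turned it to 0.13. Ctse, cathepsin E, an aspartic protease known from stomach and immune cells (chromosome 1, 131638306 to 131675505), stood at 0.05, 0.07 and 0.27 TPM in controls against 0.06, 0.05 and 0 TPM in Sox9 cKO. It was too low to be tested.

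Ctsa, cathepsin A, is a serine carboxypeptidase that also shields the glycosidases NEU1 and GLB1 from degradation in a shared complex (chromosome 2, 164832873 to 164841032). Its level was 97.5, 95.1 and 73.9 TPM in controls against 70.8, 55.9 and 66.3 TPM in Sox9 cKO. The groups did not overlap, although control replicate 3 and Sox9 cKO replicate 1 were close. On the log2 scale the fitted change was -0.46 (SE 0.16, 95% interval -0.82 to -0.10, limma adjusted p = 0.0986), and with a term for the sex markers it was -0.21. For its partners the log2 fold changes were -0.42 for Neu1 (limma adjusted p = 0.0712) and -0.12 for Glb1 (limma adjusted p = 0.686). Neu1 stood at 22.7 to 24.2 TPM in controls and 16.1 to 19.1 TPM in Sox9 cKO, without overlap, and Glb1 at 13.7 to 16.4 and 11.7 to 17.3 TPM, with overlap.

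The annotation places other genes across several members. On the opposite strand, Pltp and Neurl2 overlap Ctsa, Fdft1 overlaps Ctsb, Nelfcd overlaps Ctsz, the noncoding gene Gm26522 overlaps Ctsc, and the antisense gene Gm47123 overlaps Ctsl. On the same strand, the pseudogene Hmgb1-ps5 overlaps Ctss, the pseudogene Gm49230 overlaps Ctsl, and the protein-coding gene model Gm49369 overlaps Ctsd. The strand setting of the quantification is not given in the sources used here. Reads from any stretch shared by genes on opposite strands may therefore not be told apart, and same-strand overlaps are uncertain under any setting. Whether the overlapping genes share exons with these members is not shown. Ctse, Ctsf and Ctsh have no overlapping gene.

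The 10 genes together gave 2311, 2219.7 and 2286 TPM in controls against 1751, 1633 and 1651 TPM in Sox9 cKO. Ctss made up 4.03%, 4.56% and 3.65% of this sum in controls and 1.72%, 1.19% and 3.36% in Sox9 cKO, so its share was smaller in every Sox9 cKO library than in any control. Ctsd made up 17.1%, 17.8% and 15.0% in controls and 20.1%, 23.2% and 18.0% in Sox9 cKO, a larger share in every Sox9 cKO library. The share of Ctsl, the largest, was 28.5% to 39.1% in controls and 29.0% to 31.9% in Sox9 cKO, with overlap. Shares of Ctsb, at 14.5% to 16.0% and 13.0% to 14.9%, overlapped as well.

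**Figure D3:**
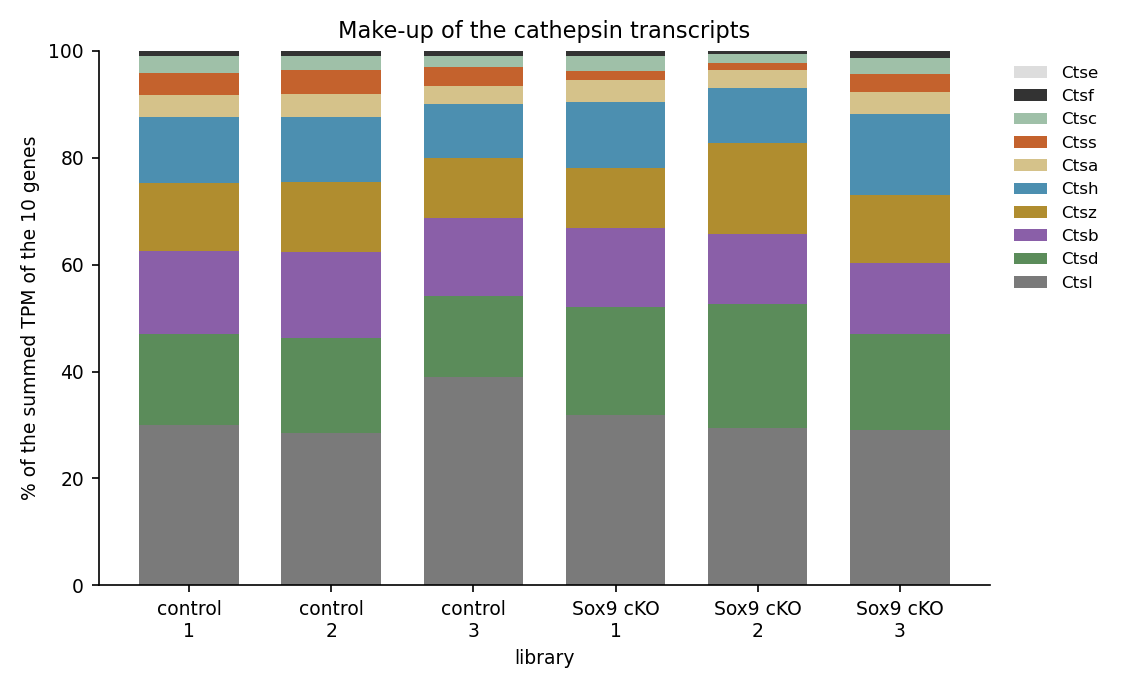
Share of each gene in the summed TPM of the 10 cathepsin genes (y axis, percent, stacked from 0 to 100) in each liver library. The Ctss band is 3.65% to 4.56% in controls and 1.19% to 3.36% in Sox9 cKO, and the Ctsd band is 15.0% to 17.8% and 18.0% to 23.2%.

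The ratio of Ctss to each other tested member within a library does not depend on how the library was scaled. On the log2 scale the ratio of Ctss to Ctsd was -2.08, -1.96 and -2.03 in controls and -3.53, -4.25 and -2.41 in Sox9 cKO, a difference of means of -1.37. Differences of the other 7 ratios lay between -1.21 (to Ctsz) and -0.92 (to Ctsb). For 6 of the 8 ratios the groups did not overlap, and each gave p = 0.1 in an exact two-sided permutation test, the smallest value that 3 against 3 libraries allow, or 0.133 after Benjamini-Hochberg adjustment over the 8 pairs. The ratio to Ctsb overlapped through Sox9 cKO replicate 3, and the ratio to Ctsl through Sox9 cKO replicate 3 (-3.10) lying above control replicate 3 (-3.41). Both gave p = 0.2 in the exact permutation test. All 8 ratios share Ctss, the member with the largest fitted change, so they are not separate results. How often the ratio of Ctss to any other tested gene separates the groups was not computed. Under 2 other pseudocounts and with libraries left out, the 72 values lay between -1.86 and -0.55, all with the same sign.

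Macrophage markers were lower as well, as were markers of other cell types given further below. Of 20 markers of macrophages and Kupffer cells, 15 were lower in Sox9 cKO and 0 higher, with a median log2 fold change of -1.49, and between 0 and 19 were lower over the alternatives, 0 of them without control replicates 1 and 2. Their summed level was 926 to 1537 TPM in controls and 308 to 689.9 TPM in Sox9 cKO. The 5 markers that were not called were Clec4f, Adgre1, Vsig4, Folr2 and Cd163. Of these, the Kupffer cell lectin Clec4f (limma adjusted p = 0.0561) stood at 143, 146 and 84.5 TPM in controls. In Sox9 cKO it stood at 50.7, 28.9 and 75.8 TPM. None of the 20 was at 0 in all libraries. In bulk tissue, fewer macrophages and less RNA per macrophage cannot be told apart.

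Set against the summed macrophage markers, Ctss overlapped between the groups and 6 of the 8 other tested cathepsins did not. The marker sum was itself lower in every Sox9 cKO library than in any control. A gene that falls less than the sum therefore rises on this scale, whatever the gene. How many of all tested genes separate in this way was not computed, so whether the count is particular to the cathepsins was not tested. Ctss equalled 6.41%, 6.58% and 9.02% of the marker sum in controls and 6.55%, 6.31% and 8.05% in Sox9 cKO, so the groups overlapped. Ctsd equalled 27.2%, 25.7% and 37.1% in controls and 76.6%, 123% and 43.2% in Sox9 cKO. In every Sox9 cKO library Ctsd, Ctsz, Ctsh, Ctsc, Ctsa and Ctsf were above all controls on this scale. Ctsb overlapped, at 23.1% to 35.9% in controls and 31.9% to 68.8% in Sox9 cKO, and so did Ctsl, at 41.1% to 96.4% and 69.4% to 156%. These values are descriptions without a test, and what part the macrophage markers have in the level of Ctss was not tested.

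**Figure D4:**
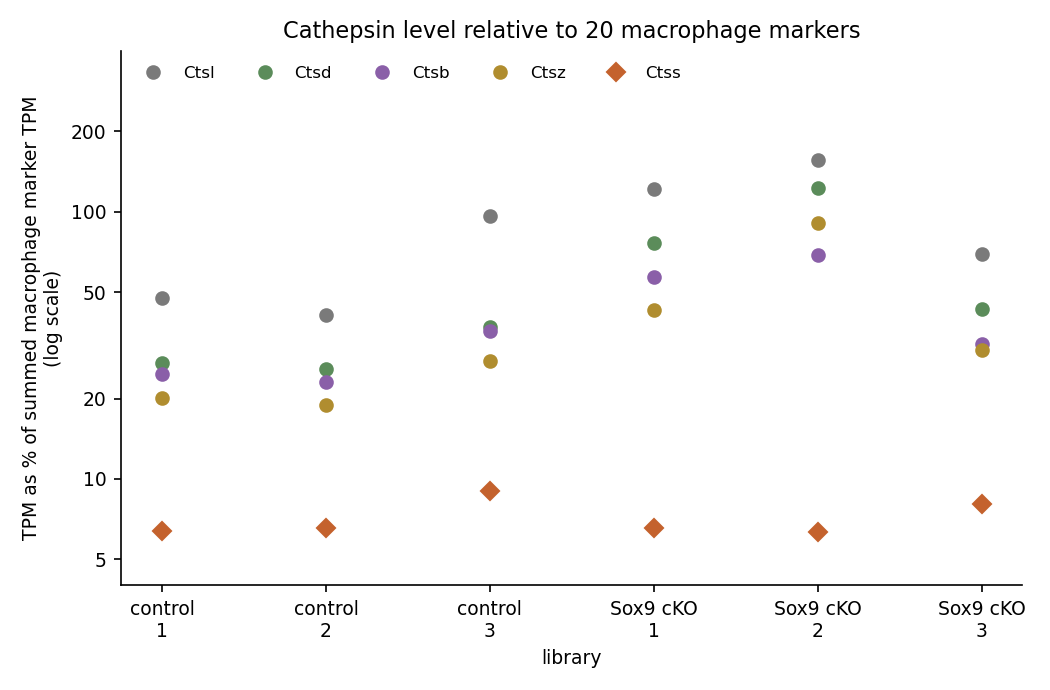
Level of 5 cathepsin genes as a percentage of the summed TPM of 20 macrophage and Kupffer cell markers (y axis, log scale) in each liver library (x axis). Ctss (diamonds) lies between 6.31% and 9.02% in all 6 libraries, while Ctsd (green circles) lies at 25.7% to 37.1% in controls and 43.2% to 123% in Sox9 cKO. The marker sum itself is lower in every Sox9 cKO library than in any control.

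The other marker lists were read in the same way. Of 6 tested neutrophil markers 6 were lower in Sox9 cKO, with a summed level of 34.9 to 83.5 TPM in controls and 1.59 to 9.14 TPM in Sox9 cKO, and 0 to 6 were lower over the alternatives. Of 7 tested lymphocyte markers 1 was lower, of 8 cholangiocyte markers 3, of 10 stellate cell markers 7 and of 10 endothelial markers 4, with 0 higher in each. The 3 cholangiocyte markers were Sox9, which is the deleted gene, Tspan8 and Prom1. Lower calls made up 8.76% of all tested genes. The endothelial calls were lost in 9 (Cdh5), 12 (Gpr182), 13 (Fcgr2b) and 14 (Stab2) of 18 alternatives. That of Ptprc, the lymphocyte gene, was lost in 11 of 17. Fewer losses were seen for Tspan8 (2 of 17), Prom1 (2 of 18), Col3a1 (2 of 18), Vim (3 of 18) and Cygb (4 of 18), but 9 of 17 for Col1a1. Of 6 tested erythroid markers 3 were lower and 1 higher. Median log2 fold changes were -2.03 for neutrophil, -1.52 for erythroid and -1.19 for stellate cell markers. They were -0.86 for lymphocyte, -0.73 for cholangiocyte and -0.54 for endothelial markers. Of 12 hepatocyte markers 0 were called by limma and 0 had an unadjusted p under 0.05, and their median log2 fold change of -0.25 was close to that of all genes. Their summed level, 155526 to 167269 TPM in controls and 131951 to 142088 TPM in Sox9 cKO, marks all 6 libraries as liver but did not overlap between the groups. Alb was the 1 marker of the 12 without overlap, at 100900 to 110461 TPM in controls and 74907 to 82381 TPM in Sox9 cKO. Its Sox9 cKO mean was 73.4% of the control mean (log2 fold change -0.45, limma adjusted p = 0.330). Of 10 gastric and intestinal markers 5 were at 0 in all libraries and the 1 tested was not called. What part these cells have in the levels of the cathepsins was not tested.

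The genes whose levels over the 6 libraries were most like those of Ctss were Hgf, Fcgr4, Tyrobp, Cd53 and Mpeg1, among 8110 genes averaging at least 5 TPM. Likeness was the root mean square difference of the mean-centred log2 levels, which was 0.0949 for Hgf, 0.114 for Fcgr4, 0.138 for Tyrobp, 0.142 for Cd53 and 0.148 for Mpeg1. Hgf, hepatocyte growth factor, stood at 9.83, 9.75 and 8.26 TPM in controls against 2.78, 1.53 and 4.52 TPM in Sox9 cKO, with replicate 2 lowest and replicate 3 highest as for Ctss. For Ctsl the nearest were Sfxn2 (0.0434), Galnt11 (0.0646), Epb4.1l5 (0.0777), Dusp16 (0.0790) and Lbr (0.0803), of which 0 passed the threshold. Sfxn2, a mitochondrial transporter of the sideroflexin family, stood at 38.1, 37.5 and 51.7 TPM in controls against 33.1, 26.7 and 26.9 TPM in Sox9 cKO, with control replicate 3 highest as for Ctsl.

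Outside the 10 genes, 13 of 14 further mouse cathepsin symbols had a row, and 8 of these were at 0 in all libraries. Ctsk, the collagen-degrading cathepsin of osteoclasts, lies 17423 bases before Ctss on chromosome 3. It stood at 1.77, 1.41 and 2.30 TPM in controls against 0.87, 0.51 and 0.76 TPM in Sox9 cKO, without overlap. Its log2 fold change was -0.93 (limma adjusted p = 0.0450, SE 0.23), a call lost in 14 of 17 alternatives, leaving out any 1 library included, with adjusted p from 0.0303 to 0.274. Ctso stood at 37.6 to 41.3 TPM in controls and 29.6 to 38.1 TPM in Sox9 cKO (fitted change on the log2 scale -0.29, limma adjusted p = 0.201). Ctsw, a cathepsin of natural killer and cytotoxic T cells, stood at 1.54, 2.09 and 0.48 TPM in controls against 0, 0.38 and 0.28 TPM in Sox9 cKO (fitted change on the log2 scale -1.31, limma adjusted p = 0.0777). Ctsg and Ctsj did not exceed 0.31 and 0.14 TPM and were not tested.

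The inhibitors of the cysteine cathepsins gave 0 calls among 4 tested genes by limma, 2 of them lower at an unadjusted p under 0.05, with a median log2 fold change of -0.44. Kng1 and Kng2, the kininogens, are plasma proteins made by hepatocytes that carry cystatin domains. Kng1 stood at 2767, 2837 and 3317 TPM in controls against 2390.4, 1655 and 1991 TPM in Sox9 cKO, without overlap (fitted change on the log2 scale -0.57, limma adjusted p = 0.0884). Kng2 had a log2 fold change of -0.71 (limma adjusted p = 0.0561), also without overlap. Cst3, cystatin C, the secreted inhibitor, and Cstb, stefin B, the cytosolic one, had log2 fold changes of -0.31 (limma adjusted p = 0.188) and -0.26 (limma adjusted p = 0.236), and their groups overlapped.

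Lgmn, legumain or asparaginyl endopeptidase, which cleaves the single-chain forms of cathepsins B, H and L into their mature chains, was lower in Sox9 cKO. It stood at 97.2, 88.6 and 86.8 TPM in controls against 45.9, 36.3 and 45.9 TPM in Sox9 cKO. The groups lay far apart relative to their spread, with a log2 fold change of -1.09 (limma adjusted p = 0.00672, SE 0.14). Of the 9 lysosomal peptidases outside the cathepsins 2 were lower and 0 higher, with a median of -0.35; the second was the serine carboxypeptidase Scpep1 (fitted change on the log2 scale -0.60, limma adjusted p = 0.0455), whose call was lost in 14 of 18 alternatives, against 2 of 18 for Lgmn.

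Of 10 granule serine proteases that cathepsin C activates 3 were tested and 2 were lower. Prtn3, proteinase 3 of neutrophils, stood at 6.08, 14.8 and 41.5 TPM in controls against 0.59, 0.73 and 0.91 TPM in Sox9 cKO, a wide spread among controls and no overlap (fitted change on the log2 scale -3.71, SE 0.58, limma adjusted p = 0.0133). Gzma, granzyme A, had a log2 fold change of -1.32 (limma adjusted p = 0.0335), a call lost in 10 of 17 alternatives with adjusted p up to 0.465, while that of Prtn3 was lost in 1 of 18. Elane, Mpo and Ctsg, other products of neutrophil precursors, did not exceed 0.50 TPM in any library.

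Of 10 genes of MHC class II loading 2 were lower, H2-Aa (fitted change on the log2 scale -1.80, limma adjusted p = 0.0482) and H2-DMb1 (-1.61, limma adjusted p = 0.0452), with a median of -1.41 over the list and 0 to 8 lower over the alternatives, in which the call of H2-Aa was lost in 15 of 18 and that of H2-DMb1 in 14 of 18. Cd74, the invariant chain that cathepsin S cleaves, stood at 96.5, 197 and 87.1 TPM in controls against 50.7, 17.0 and 78.1 TPM in Sox9 cKO. The groups did not overlap, Sox9 cKO replicate 2 was again lowest and replicate 3 highest, and the log2 fold change was -1.52 (limma adjusted p = 0.110, SE 0.54), which is not past the threshold.

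Among lysosomal genes other than cathepsins, 74 in 4 lists, 11 were lower and 1 was higher, with a median log2 fold change of -0.27 beside -0.24 for all genes. Over the alternatives 0 to 13 of the glycosidases, sulfatases and lipases and 0 to 4 of each other list were lower, 0 in each with the sex-marker term or without control replicates 1 and 2. Glycosidases, sulfatases and lipases gave 4 lower and 1 higher of 31, and the lower ones included Asah1, acid ceramidase (-0.94, limma adjusted p = 0.0119), and Man2b1, a mannosidase. Arsa, arylsulfatase A, was the higher one. It stood at 12.7, 12.8 and 8.16 TPM in controls against 30.8, 25.7 and 24.3 TPM in Sox9 cKO, with a log2 fold change of 1.25 (limma adjusted p = 0.0142, SE 0.20). Membrane and lumen proteins gave 3 lower of 17, namely the tetraspanin Cd63 (-1.81, limma adjusted p = 0.0142), the sterol carrier Npc2 (-0.70, limma adjusted p = 0.0183) and the saposin precursor Psap (-0.48, limma adjusted p = 0.0494), which is also a binding partner of cathepsin D. The call was lost in 4 of 18 alternatives for Cd63, 6 for Npc2 and 16 for Psap.

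The proton pump that acidifies the lysosome gave 2 lower of 17 subunits, with a median of -0.13. Atp6v0d2, a subunit known from osteoclasts, macrophages and kidney, stood at 27.7, 23.9 and 36.6 TPM in controls against 5.75, 1.3 and 2.63 TPM in Sox9 cKO. That is a log2 fold change of -3.17 (limma adjusted p = 0.00746, SE 0.41). Atp6v1b2, the widely expressed form of its subunit, had a log2 fold change of -0.51 (limma adjusted p = 0.0379), a call lost in 12 of 18 alternatives, against 2 of 18 for Atp6v0d2. Of 11 genes of mannose 6-phosphate sorting 0 were called by limma and 2 were lower at an unadjusted p under 0.05. The receptors M6pr and Igf2r had log2 fold changes of -0.24 (limma adjusted p = 0.186) and -0.59 (limma adjusted p = 0.0692), each without overlap of the groups.

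Of 10 regulators of lysosomal genes 3 were lower, with a median of -0.61 and 0 to 4 lower over the alternatives. They were Rragd, a Rag GTPase (-1.21, limma adjusted p = 0.0212), Flcn, folliculin, which acts on the Rag GTPases (-0.79, limma adjusted p = 0.0465), and Tfec, a relative of TFEB found in macrophages (-0.76, limma adjusted p = 0.0432). The call was lost in 6 of 17 alternatives for Rragd, 15 of 18 for Flcn and 13 of 17 for Tfec. Rragd stood at 1.86, 1.34 and 1.14 TPM in controls against 0.32, 0.35 and 0.33 TPM in Sox9 cKO. Tfeb and Tfe3 themselves had log2 fold changes of -0.10 (limma adjusted p = 0.678) and -0.08 (limma adjusted p = 0.746), with overlapping groups.

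**Figure D5:**
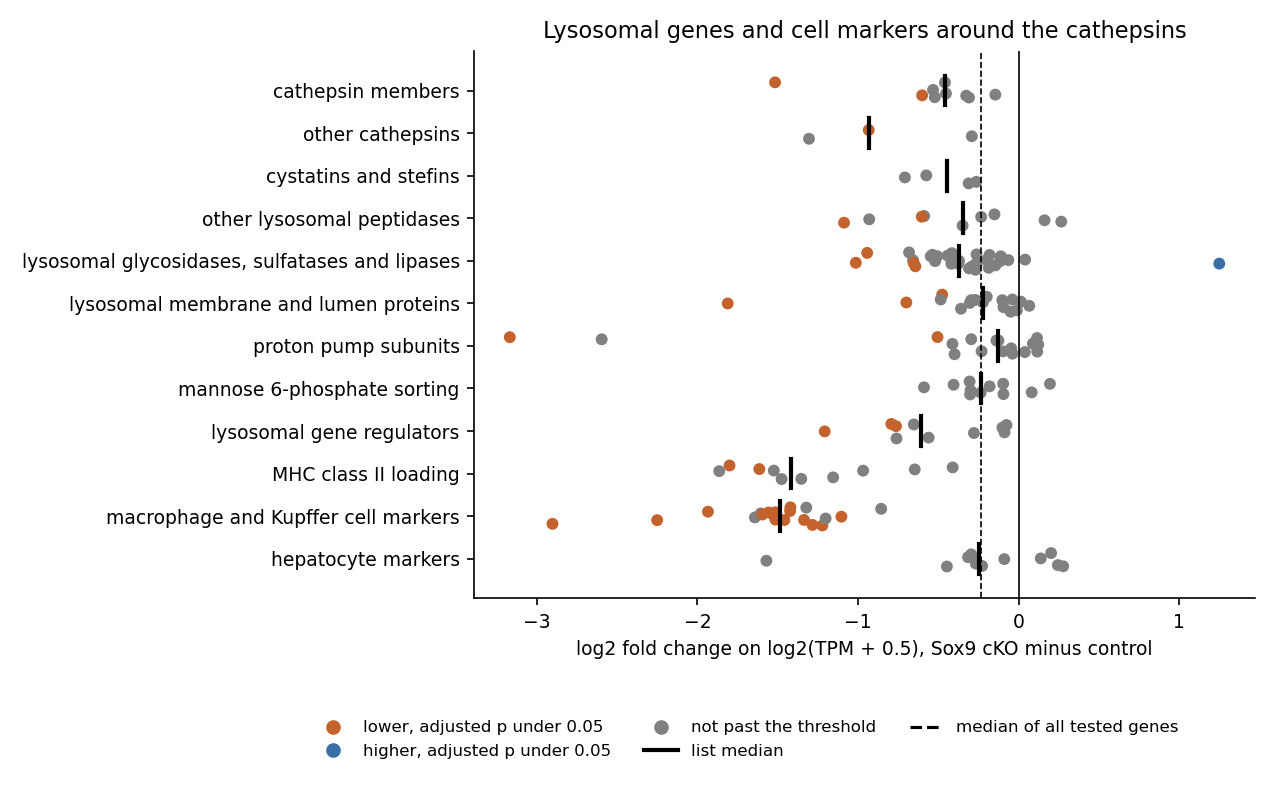
Fitted log2 fold change (x axis, log2(TPM + 0.5), Sox9 cKO minus control) of each tested gene in 12 lists around the cathepsins (rows); points are genes, spread vertically at random, and the black bar is the list median. The medians of the macrophage and MHC class II lists are -1.49 and -1.41, those of the cathepsins, other lysosomal peptidases and proton pump subunits are -0.46, -0.35 and -0.13, and the dashed line marks -0.24 for all tested genes.

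Set against the control with Y-linked transcripts alone, the members differed in how many libraries lay below it. All 3 Sox9 cKO libraries were below control replicate 3 for Ctsa, Ctsb, Ctse, Ctsl and Ctss. For Ctsf, Ctsh and Ctsz 2 of the 3 were below it, and for Ctsc and Ctsd 1 was. Ctse was too low to be tested, and for Ctsl control replicate 3 was the highest control. How many of all tested genes lie below control replicate 3 in this way was not computed, so these counts have no background beside them. This control leaves a single library on 1 side, so limma rests on the spread of the Sox9 cKO libraries there, and 0 of the 9 members were past the threshold, with 1 lower at an unadjusted p under 0.05. A term for the sex markers sets Sox9 cKO against the same control, because only control replicates 1 and 2 have Xist above 10 TPM. It gave the same log2 fold changes, -1.37 for Ctss and -0.53 for Ctsb, and is not a separate check.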

How the data were processed

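The authors deposited 1 table of TPM with a column for each of 6 liver libraries. Per the labels' protocols and the submitters' processing notes, stranded mRNA libraries were sequenced as single-end reads, trimmed with Trim Galore 0.5.0 and cutadapt 1.16, aligned to mm10 with STAR 2.6.0a and quantified with RSEM 1.3.1; the sources used here give neither annotation nor strand setting. TPM keeps no depth, so no counting interval was computed.

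Genes averaging at least 0.5 TPM were transformed to log2(TPM + 0.5), a scale that understates changes of low genes, and fitted with limma 3.58.1 under R 4.3.3, using a single group term, a variance trend, two-sided tests and Benjamini-Hochberg adjustment over all 12539 genes at 0.05. Members, 21 gene lists and tests were chosen with earlier results of these data known. Named were all cathepsins, from each list up to 4 called genes with the largest change or else 2 of the highest level, partners and regulators fixed by name, and the 5 genes most like Ctss and Ctsl; some are not reported here, and Man2b1, Clec4f, Elane and Mpo were named after their values were seen. On data simulated for this comparison with 12539 genes, 59 of 100 genes changed 2-fold and 91 of 100 changed 4-fold were called, beside 14 of 12339 unchanged genes. The simulation changed far fewer genes than were called in the data (1099 lower and 103 higher), so its rates may not carry over. Positions come from the GENCODE annotation of GRCm38. Alternatives were other pseudocounts, filters, scalings and weights, a variance without trend, a replicate block, a covariate for Xist above 10 TPM (the sex-marker term) and leaving out libraries. Only control replicates 1 and 2 exceed that level, so with this term the group effect sets Sox9 cKO against control replicate 3. Its fold changes equal those of leaving out both of these controls, and the counts of alternatives include both fits. Figures were drawn with matplotlib 3.10.9.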

Additional observations from a re-analysis of the deposited data

How the results depend on the processing

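The 2 members called lower were Ctsb and Ctss under 5 alternatives: pseudocounts of 0.1 and 1, a minimum mean of 5 TPM, rescaling without the 50 most abundant genes, and no variance trend. The count was 1 without a filter, 0 after median centring, 0 after quantile normalization, 4 with array weights (Ctsa, Ctsb, Ctss and Ctsz), 0 with the sex-marker term, 0 without the 2 Xist-carrying controls, and 0 to 1 when each library was left out in turn; 0 members were higher under any alternative run. The log2 fold change of Ctss was -1.52 without a filter (adjusted p = 0.0503), -1.24 after median centring (0.0753), -1.39 after quantile normalization (0.0749), -1.37 with the sex-marker term and -1.37 without the 2 Xist-carrying controls (0.416), and -1.91 to -1.16 when each library was left out, with adjusted p from 0.00277 to 0.416 over all alternatives. Over all tested genes, lower calls were 1099 in the reported fit, 430 at a minimum mean of 5 TPM, 256 after median centring, 215 after quantile normalization, 2312 with array weights, 49 with the sex-marker term, 18 without the 2 Xist-carrying controls and 104 to 1003 with 1 library left out. Higher calls were 103, then 252 with array weights, 21 with the sex-marker term, 9 without the 2 Xist-carrying controls and 32 to 107 with 1 library left out. Lower genes were 91.4% of calls in the reported fit, 63.7% after median centring and 64.2% after quantile normalization. With the replicate number as a block, 1 member was called (Ctss), with 563 genes lower in all; same-numbered libraries of the groups did not deviate together (correlations -0.045, 0.0035 and -0.027; 0 of 6 libraries correlated best with their own number), so the numbers are taken as names. Fitted values near 0 changed sign. After median centring these were Ctsd (0.13), Cstb (0.011), M6pr (0.039), Mcfd2 (0.18), Glb1 (0.16), Tfe3 (0.20) and Tfeb (0.17), and after quantile normalization Apoa2 (-0.014), Glb1 (0.10), Tfe3 (0.16) and Tfeb (0.22). With array weights these were Glb1 (0.015) and Lman1 (-0.017), and both with the sex-marker term and without the 2 Xist-carrying controls Glb1 (0.021) and Tfe3 (0.025). Leaving out each library gave ranges of -0.27 to 0.0019 for Glb1, -0.023 to 0.31 for Lman1 and -0.27 to 0.041 for Mcfd2. The cause was not tested.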
